A study of Mus musculus with 8 samples.

Results

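The transcripts of 10 integrin subunits of epithelial and invasive cells were followed in sorted mammary tumor cells. They were chosen by name as Itga1, Itga2, Itga3, Itga5, Itgav, Itgb1, Itgb3, Itgb5, Itgb6 and Itgb8, and are 10 of the 53697 genes in the count table. All 10 passed the filter on low counts. The tumors came from MMTV-PyMT mice of C57BL/6 background, in which a viral promoter active in mammary epithelium drives the polyoma middle T oncogene. Mice 1 and 2 were PyMT-Dll1-GFP animals, whose reporter is a knock-in at Dll1 (GFP mice), and mice 3 and 4 were PyMT-Dll1-mCh animals, whose mCherry reporter is carried on a bacterial artificial chromosome (mCh mice). Lineage-negative cells, depleted of cells that bear CD45, CD31 or Ter119, were divided by reporter fluorescence into Dll1+ and Dll1- fractions, so that each mouse gave 1 library of each kind and the 8 libraries formed 4 pairs. Dll1+ therefore means reporter-positive, the 2 mice of a reporter line are all the replicates that line has, and a library is a mixture of the lineage-negative cells of the tumor. The age of the animals is not in the labels. The reporter line cannot be told apart from any batch in which its animals were processed.

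Integrins are cell surface receptors for the extracellular matrix, each made of 1 α and 1 β subunit. The β1 subunit pairs with many α subunits, here α1 and α2, which bind collagen, α3, which binds laminins, and α5, which binds fibronectin at its Arg-Gly-Asp (RGD) motif. The αv subunit pairs with β1, β3, β5, β6 or β8 into receptors that bind RGD motifs in vitronectin, fibronectin and osteopontin, and αvβ6 and αvβ8 also activate latent TGF-β. In the mammary gland, integrins anchor basal cells to the basement membrane, and several are used by tumor cells during invasion and by fibroblasts and endothelial cells of the stroma.

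The sort was visible in the transcripts. Dll1 was 4.97- to 11.5-fold higher in Dll1+ than in Dll1- cells of the same mouse. Total counts ranged from 27301396 to 123907626 per library. The epithelial marker Epcam lay between 899 and 1240 CPM in the 8 libraries (CPM are counts scaled to a common library size after TMM normalization), and none of the 10 epithelial markers was at 0 in any library. Markers of other cell types were also present. The summed level of 12 fibroblast markers was 1393 and 1506 CPM in Dll1- and 1299 and 1369 CPM in Dll1+ cells of GFP mice, against 8833 and 25019 CPM in Dll1- and 3920 and 3963 CPM in Dll1+ cells of mCh mice. Of the sort's own antigens, Pecam1 (CD31) was at 13.7 to 14.3 CPM in the 4 libraries of GFP mice. In mice 3 and 4 it was at 42.6 and 98.2 CPM in Dll1- and 24.9 and 24.1 CPM in Dll1+ cells. Ptprc (CD45) was at 2.88 to 4.39 CPM in the libraries of GFP mice. In mice 3 and 4 Ptprc was at 10.4 and 12.7 CPM in Dll1- and 6.39 and 5.32 CPM in Dll1+ cells. Each of the 12 fibroblast, 8 pericyte, 10 endothelial and 12 immune markers was lower in Dll1+ than in Dll1- cells of both mCh mice. The 9 basal and myoepithelial markers summed 2.21-, 1.57-, 3.57- and 2.17-fold higher in Dll1+ cells of mice 1 to 4. They did not all move together, as 1, 1, 0 and 3 of the 9 were lower in Dll1+ cells of mice 1 to 4. In such bulk libraries, fewer cells of a type and less RNA per cell cannot be told apart.

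**Figure D1:**
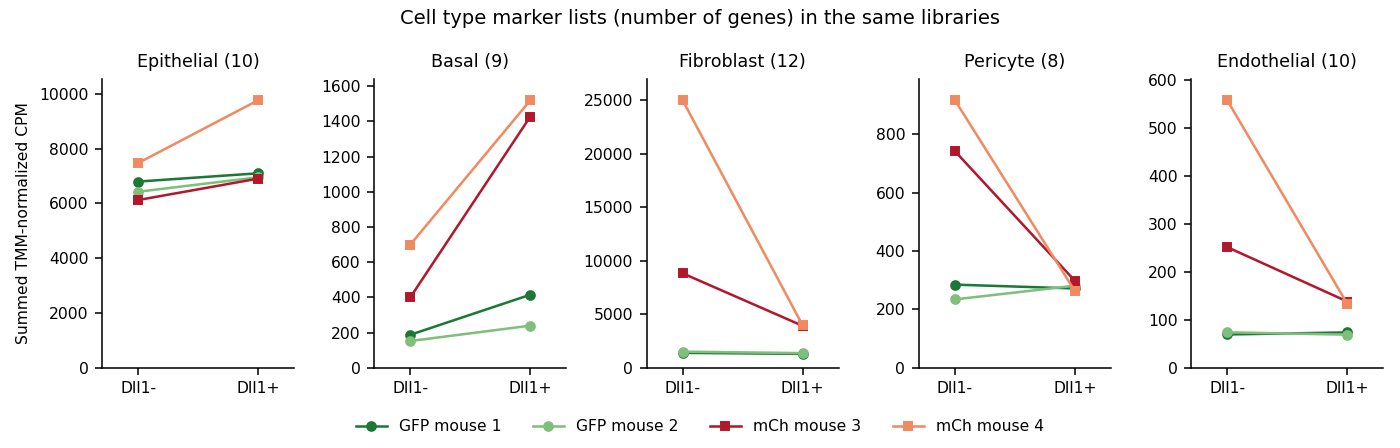
Summed TMM-normalized CPM of 5 marker lists (vertical axes, each from 0 and each on its own scale) in the Dll1- and Dll1+ library of each mouse, with a line joining the libraries of 1 mouse. Fibroblast, pericyte and endothelial sums were highest in the Dll1- libraries of mice 3 and 4, and the basal sums were higher in Dll1+ cells in every mouse.

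Over the 4 mice, Itgav, the α subunit of the vitronectin and osteopontin receptors, and Itga3, a laminin receptor subunit, were higher in Dll1+ cells, and Itga5, the fibronectin receptor subunit, was lower. Itgav was 1.64-fold higher (log2 fold change 0.72, SE 0.09) and Itga3 1.39-fold higher (0.48, SE 0.07), while Itga5 was 1.99-fold lower (-0.996, SE 0.20), each in the same direction in 4 of 4 mice. These were 3 of the 10 members at an adjusted p under 0.05 (edgeR quasi-likelihood test with the mouse as a block, Benjamini-Hochberg over 18322 genes), 2 higher and 1 lower. Among all genes tested 14.0% were called, 6.98% higher and 7.04% lower. The median log2 fold change of the 10 members was 0.29 and that of all tested genes -0.00068, and 6 of the 10 members had an unadjusted p under 0.05, as did 32.4% of all genes.

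The 5' flanks of Itgav and Itga5, which moved in opposite directions, are shown beside that of Itgb1, which encodes a β subunit that pairs with both. Each window holds the 250 bases before the transcription start of RefSeq (GRCm38.p6), 5′ to 3′ on the coding strand, at chr2:83724147-83724396 (plus strand) for Itgav, chr15:103366792-103367041 (minus) for Itga5 and chr8:128685404-128685653 (plus) for Itgb1. Capitals mark the GC box GGGCGG, read on either strand.
Itgav: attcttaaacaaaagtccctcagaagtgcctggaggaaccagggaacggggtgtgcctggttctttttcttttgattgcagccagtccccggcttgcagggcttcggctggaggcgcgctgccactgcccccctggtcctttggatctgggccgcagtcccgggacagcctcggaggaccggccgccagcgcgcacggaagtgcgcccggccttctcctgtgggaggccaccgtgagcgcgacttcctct
Itga5: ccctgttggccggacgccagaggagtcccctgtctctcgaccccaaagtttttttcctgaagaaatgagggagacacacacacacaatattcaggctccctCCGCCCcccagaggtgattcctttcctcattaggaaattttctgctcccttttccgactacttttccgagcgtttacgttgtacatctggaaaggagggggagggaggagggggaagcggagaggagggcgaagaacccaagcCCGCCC
Itgb1: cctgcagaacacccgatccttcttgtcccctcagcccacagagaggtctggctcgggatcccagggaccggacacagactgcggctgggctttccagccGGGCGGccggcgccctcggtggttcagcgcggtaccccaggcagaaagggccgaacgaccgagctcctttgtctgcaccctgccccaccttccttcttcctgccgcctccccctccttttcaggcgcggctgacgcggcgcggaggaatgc
The Itga5 window held 2 GC boxes, the Itgb1 window 1 and the Itgav window 0. Windows were given for 9 of the 10 members, with no window for Itgb3, and 2 of the members had a second start, which made 11 windows. The first start of Itga3 and the start of Itgb5 had 3 GC boxes each, and 32.7% of all 32851 windows held at least 1. The letters TGGGAA (the core read by the Notch effector RBPJ) and TGANTCA (an AP-1 site), sought on both strands, were in 0 of the 11 windows and in 21.6% and 6.75% of all windows. Such matches describe these letters in these windows only.

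The transcripts of the α subunits for collagen and laminin differed in their pattern. Itga3 (chr11:95044474-95076801, GRCm38) was at 83.5 and 83.8 CPM in Dll1- and 107 and 113 CPM in Dll1+ cells of mice 1 and 2. In mice 3 and 4 it was at 72.2 and 109 CPM in Dll1- and 114 and 150 CPM in Dll1+ cells. The gain was 1.28-, 1.35-, 1.58- and 1.37-fold in mice 1 to 4, so that the pairs moved alike although the pooled ranges overlapped, the Dll1- library of mouse 4 being above the Dll1+ library of mouse 1. The adjusted p was 0.0115 over 4 mice, 0.0362 in GFP mice (log2 fold change 0.40) and 0.0154 in mCh mice (0.56). The 2 effects differed by 0.16 on the log2 scale (95% interval -0.12 to 0.44, adjusted p 0.634). Without mouse 3, the call in mCh mice was lost (0.43, adjusted p 0.0649). The calls in GFP mice were lost for both Itga3 and Itgav when either GFP mouse was left out.

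Itga1 (chr13:114953096-115101964), the α subunit of a collagen receptor that is common on fibroblasts, smooth muscle and pericytes, was at 6.31 and 7.14 CPM in Dll1- and 7.04 and 11.0 CPM in Dll1+ cells of GFP mice. In mCh mice it was at 27.9 and 43.0 CPM in Dll1- and 10.6 and 10.2 CPM in Dll1+ cells. The Dll1- libraries of mice 3 and 4 thus stood above the other 6 libraries. Itga1 was 3.32-fold lower in Dll1+ cells of mCh mice (log2 fold change -1.73, SE 0.20, adjusted p 0.0115), while the value in GFP mice was 0.40 (95% interval -0.13 to 0.93, adjusted p 0.301). Over the 4 mice it was not called (-0.72, adjusted p 0.393). The summed fibroblast markers were 2.25- and 6.31-fold and the pericyte markers 2.49- and 3.49-fold lower in Dll1+ cells of mice 3 and 4, and their part in the result was not tested. Part of the Itga1 exons, 685 bases, is shared on the same strand with Gm49395, which had 518 counts over the 8 libraries against 185 to 3479 counts of Itga1 in each.

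Itga2 (chr13:114833081-114932100), which encodes the other collagen receptor subunit, lies on the same strand as Itga1, 20995 bases away, with 1 other annotated gene between them. It was at 14.2 and 14.3 CPM in Dll1- and 22.6 and 14.1 CPM in Dll1+ cells of GFP mice, and at 5.19 and 8.82 against 9.78 and 9.97 CPM in mCh mice. The log2 fold change was 0.44 over the 4 mice (95% interval 0.02 to 0.86, adjusted p 0.143), with higher values in Dll1+ cells in 3 of 4 mice, and was 0.33 and 0.55 in the 2 lines, neither of which passed the test. The 4 libraries of mCh mice were all below the 4 of GFP mice. Itga1 and Itga2 thus differed in the line in which they were more abundant, Itga1 in Dll1- cells of mCh mice and Itga2 in GFP mice.

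**Figure D2:**
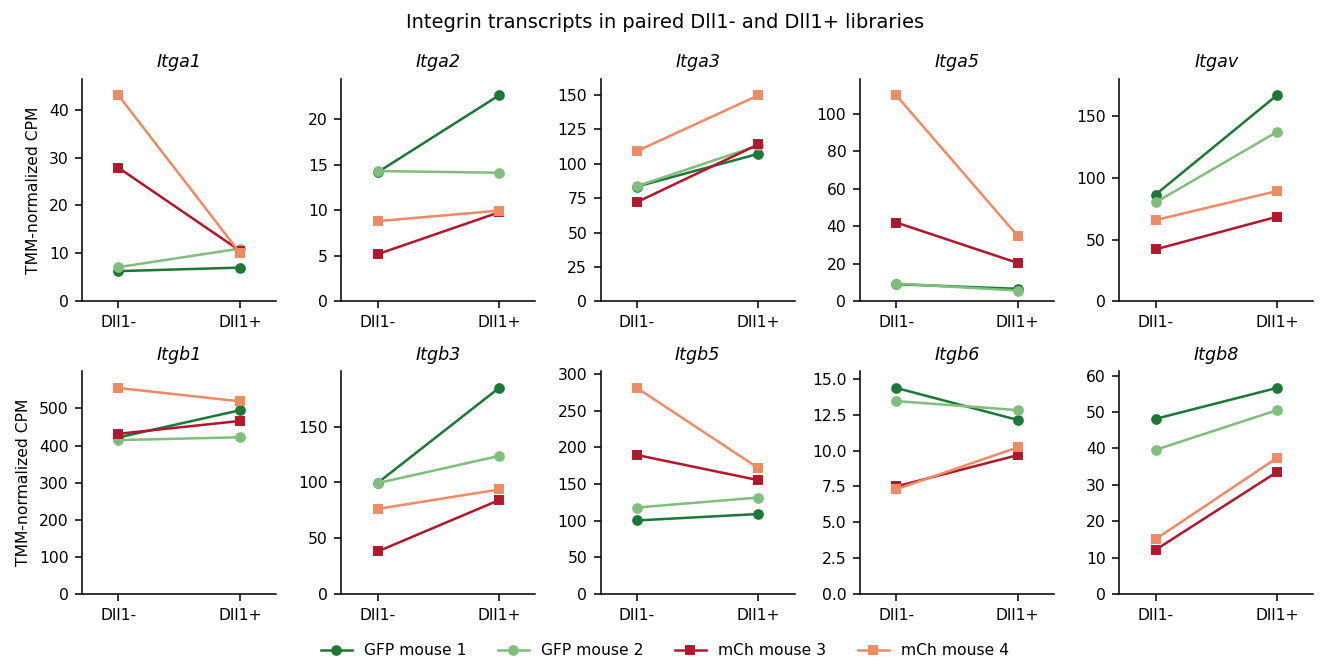
TMM-normalized CPM of the 10 integrin transcripts (vertical axes from 0, each gene on its own scale) in the Dll1- and Dll1+ library of each mouse, with circles for GFP and squares for mCh mice. Lines of Itgav and Itga3 slope up and lines of Itga5 slope down in all 4 mice, whereas those of Itga1 and Itgb5 slope up in mice 1 and 2 and down in mice 3 and 4.

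The RGD-binding α subunits among the members, αv and α5, had transcripts that moved in opposite directions. Itgav (chr2:83724397-83806916) was at 86.5 and 80.2 CPM in Dll1- and 167 and 137 CPM in Dll1+ cells of mice 1 and 2. It was at 42.2 and 65.9 CPM in Dll1- and 68.5 and 89.4 CPM in Dll1+ cells of mice 3 and 4. Within each line the Dll1+ libraries were above the Dll1- libraries, by 1.93-, 1.71-, 1.63- and 1.36-fold in mice 1 to 4. The log2 fold change over the 4 mice had a 95% interval of 0.50 to 0.93 and an adjusted p of 0.00932. The effect was 0.86 in GFP mice (adjusted p 0.00580) and 0.57 in mCh mice (adjusted p 0.0189). These 2 effects differed by -0.29, which did not pass the test (adjusted p 0.421). Without mouse 3, Itgav kept its size over the remaining mice (0.72) with an adjusted p of 0.0622, and fell to 0.42 in the mCh line (adjusted p 0.105). A noncoding transcript on the opposite strand, Gm13684, overlaps 634 exon bases of Itgav and had 38 counts over the 8 libraries.

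Itga5 (chr15:103344286-103366763), whose product pairs with β1 into the main fibronectin receptor, was at 9.14 and 9.53 CPM in Dll1- and 6.70 and 5.77 CPM in Dll1+ cells of mice 1 and 2. In mice 3 and 4 it was at 42.1 and 110 CPM in Dll1- and 20.5 and 35.0 CPM in Dll1+ cells. Each Dll1+ library was below the Dll1- library of its own mouse and below both Dll1- libraries of its line, and all 4 libraries of mCh mice were above those of GFP mice. The log2 fold change over the 4 mice had a 95% interval of -1.50 to -0.49 and an adjusted p of 0.0346, and this call was lost without mouse 1 (-1.16, adjusted p 0.0612), mouse 2 (-1.08, 0.0923) or mouse 3 (-0.97, 0.150), and without a filter on low counts (0.0691). Itga5 was 2.54-fold lower in Dll1+ cells of mCh mice (-1.34, SE 0.16, adjusted p 0.0123), and the value in GFP mice was -0.59 (SE 0.18, adjusted p 0.112). In Dll1+ cells of GFP mice the fibroblast markers summed 1.07- and 1.10-fold lower, and Itga5 was 1.37- and 1.65-fold lower. In those of mCh mice the marker sums were 2.25- and 6.31-fold lower and Itga5 2.05- and 3.14-fold lower. A sum of markers and a single gene need not change by the same fold, and the part of the markers in the result was not tested.

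Of the β subunits, Itgb1 encodes the partner shared by all of these α subunits. Its transcript had the smallest relative spread of the 10 members over the 8 libraries (466 ± 52.5 CPM, SD). Itgb1 (chr8:128685654-128733200) was at 422 and 415 CPM in Dll1- and 495 and 422 CPM in Dll1+ cells of mice 1 and 2, and at 432 and 555 against 466 and 519 CPM in mice 3 and 4. Its log2 fold change over the 4 mice was 0.07 (95% interval -0.12 to 0.26, adjusted p 0.585), which bounds a difference at 1.20-fold higher or 1.09-fold lower in Dll1+ cells.

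Of the other β subunits, all of which pair with αv, Itgb3 and Itgb8 had higher values in the Dll1+ library of each mouse, and Itgb5 and Itgb6 did not. Itgb3 (chr11:104608000-104670476), of the vitronectin and osteopontin receptor αvβ3, was at 99.6 and 99.4 CPM in Dll1- and 185 and 124 CPM in Dll1+ cells of mice 1 and 2, and at 38.1 and 76.3 against 84.1 and 93.7 CPM in mice 3 and 4. The differences were 1.85-, 1.24-, 2.21- and 1.23-fold, so that mice 1 and 3 had the larger ones in their lines, and the estimate over the 4 mice was 0.66 (SE 0.16, adjusted p 0.0544), just outside the threshold. Itgb3 passed it with DESeq2 (adjusted p 0.00115) and with a filter of at least 10 counts in every library (0.0493), and missed it in the other 9 alternatives tried.

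Itgb8 (chr12:119158022-119238802), of the TGF-β-activating receptor αvβ8, was at 48.1 and 39.6 CPM in Dll1- and 56.6 and 50.5 CPM in Dll1+ cells of mice 1 and 2. It was at 12.1 and 15.1 CPM in Dll1- and 33.5 and 37.4 CPM in Dll1+ cells of mice 3 and 4. The Dll1+ libraries were above both Dll1- libraries of their line in each line. The gain was 2.62-fold in mCh mice (log2 fold change 1.39, SE 0.09, adjusted p 0.00705) and 1.22-fold in GFP mice (0.29, SE 0.09, adjusted p 0.100). The difference between the 2 effects, 1.10 on the log2 scale (95% interval 0.79 to 1.41), had an adjusted p of 0.0538. Over the 4 mice the estimate was 0.84 with an adjusted p of 0.0917. Itgb8 passed there with DESeq2 (adjusted p 0.00321) and in no other alternative tried.

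Itgb5 (chr16:33829665-33949338), of the vitronectin receptor αvβ5, was at 100.3 and 118 CPM in Dll1- and 109 and 131 CPM in Dll1+ cells of mice 1 and 2, and at 189 and 281 against 155 and 172 CPM in mice 3 and 4. It was higher in all 4 libraries of mCh mice than in those of GFP mice. In mCh mice Itgb5 was 1.41-fold lower in Dll1+ cells (-0.50, SE 0.11, adjusted p 0.0407), a call that was lost without mouse 4 (-0.32, adjusted p 0.142) and without mouse 1 (adjusted p 0.0828) or mouse 2 (0.0857), which share the estimate of the spread. Mouse 4 had the highest fibroblast markers in its Dll1- library, at 25019 CPM in sum, and their part in the result was not tested. In GFP mice the value was 0.14 (adjusted p 0.495). Itgb6 (chr2:60598292-60722643), of the epithelial TGF-β activator αvβ6, was at 14.4 and 13.4 CPM in Dll1- and 12.1 and 12.8 CPM in Dll1+ cells of mice 1 and 2, and at 7.50 and 7.30 against 9.68 and 10.2 CPM in mice 3 and 4. Its values in the lines were -0.16 (adjusted p 0.515) and 0.42 (adjusted p 0.0885).

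**Figure D3:**
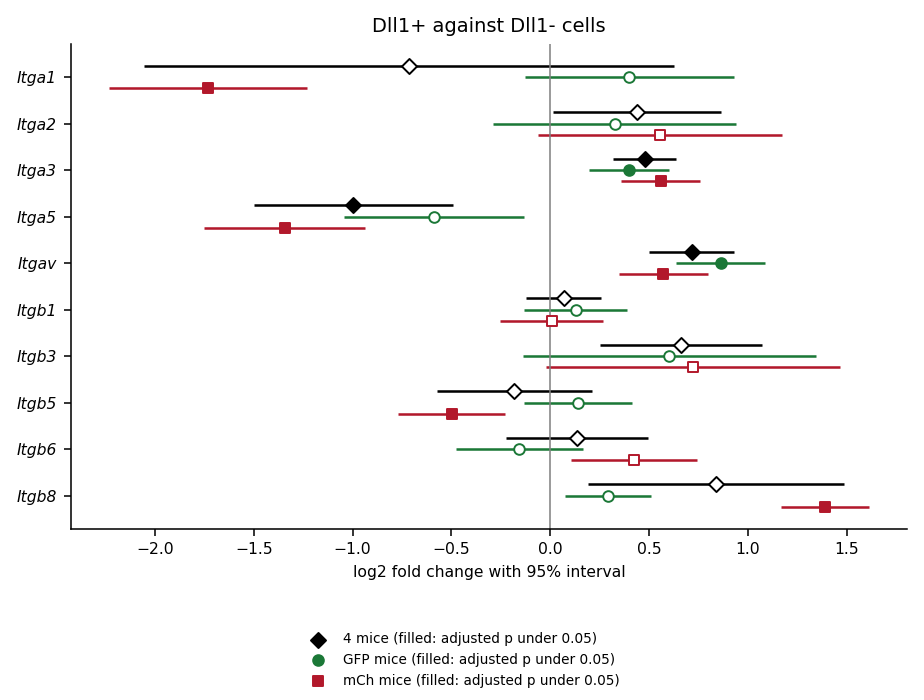
Log2 fold change of each integrin transcript in Dll1+ against Dll1- cells (horizontal axis, 0 meaning equal levels), over 4 mice and in each reporter line, with 95% intervals. Filled symbols passed an adjusted p under 0.05, which holds for Itga3 and Itgav in all 3 comparisons, for Itga5 over 4 mice and in mCh mice, and for Itga1, Itgb5 and Itgb8 in mCh mice.

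By reporter line, 2 members were called in GFP mice, Itga3 and Itgav, both higher, where 9.13% of all tested genes were called (4.29% higher and 4.84% lower). In mCh mice 6 of 10 were called, Itga3, Itgav and Itgb8 higher and Itga1, Itga5 and Itgb5 lower, where 11.8% of all tested genes were called (5.51% higher and 6.25% lower). Fitted on the 4 libraries of mCh mice alone, 0 of the 6 and 0 of all genes passed, with adjusted p of 0.0591 to 0.119 for the 6. A call in 1 line and not in the other does not show that the lines differ. In the test of the difference itself 0 members passed with edgeR, beside 0.0710% of all genes, and 5 of the 10 had an unadjusted p under 0.05, as did 13.2% of all genes. DESeq2 called 3 members in that test, Itga1, Itgb5 and Itgb8, and edgeR called 4 (Itga5 as well) without a filter on low counts, or without mouse 3.

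The level of several integrins differed between the reporter lines. In Dll1- cells 6 of 10 members passed the test between the lines, 3 higher and 3 lower in mCh mice, where 36.6% of all genes passed (18.7% higher and 17.9% lower). Itga5 was 8.11-fold (log2 fold change 3.02, SE 0.48, adjusted p 0.00505), Itga1 5.25-fold (2.39, SE 0.28, adjusted p 0.00226) and Itgb5 2.15-fold higher (1.11, SE 0.20, adjusted p 0.00763). Itgb8 was 3.24-fold (-1.70, SE 0.16, adjusted p 0.00138), Itga2 2.05-fold (-1.04, SE 0.31, adjusted p 0.0366) and Itgb6 1.88-fold lower (-0.91, SE 0.14, adjusted p 0.00390). The 12 fibroblast, 10 endothelial and 11 tested immune markers were all called higher in the same comparison, as were 6 of the 8 pericyte markers and 4 of the 9 basal and myoepithelial markers (1 basal marker, Trp63, was called lower), and their part in the result was not tested. In Dll1+ cells 3 members passed, Itga5 higher (4.46-fold, 2.16, SE 0.47, adjusted p 0.0181) and Itgav (1.93-fold, -0.95, SE 0.23, adjusted p 0.0261) and Itgb8 (1.51-fold, -0.60, SE 0.15, adjusted p 0.0284) lower, where 30.6% of all genes passed (15.2% higher and 15.4% lower). Of these markers, 8 fibroblast, 4 endothelial, 8 immune, 4 pericyte and 6 basal markers were called higher and 1 pericyte marker, Notch3, lower in mCh mice in Dll1+ cells. Itga1, with a log2 value of 0.20 in Dll1+ cells (95% interval -0.44 to 0.84, adjusted p 0.601), was not called there. Without mouse 3, Itga2 in Dll1- cells was not called (adjusted p 0.134), and without a filter on low counts Itga5 in Dll1+ cells was not (0.0818). With either GFP mouse left out, 0 members and 0 of all genes passed in either comparison, and with mouse 3 or mouse 4 left out 6 and 8 members passed in Dll1- and 5 and 3 in Dll1+ cells, with 1 mouse standing for its line in each case.

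**Figure D4:**
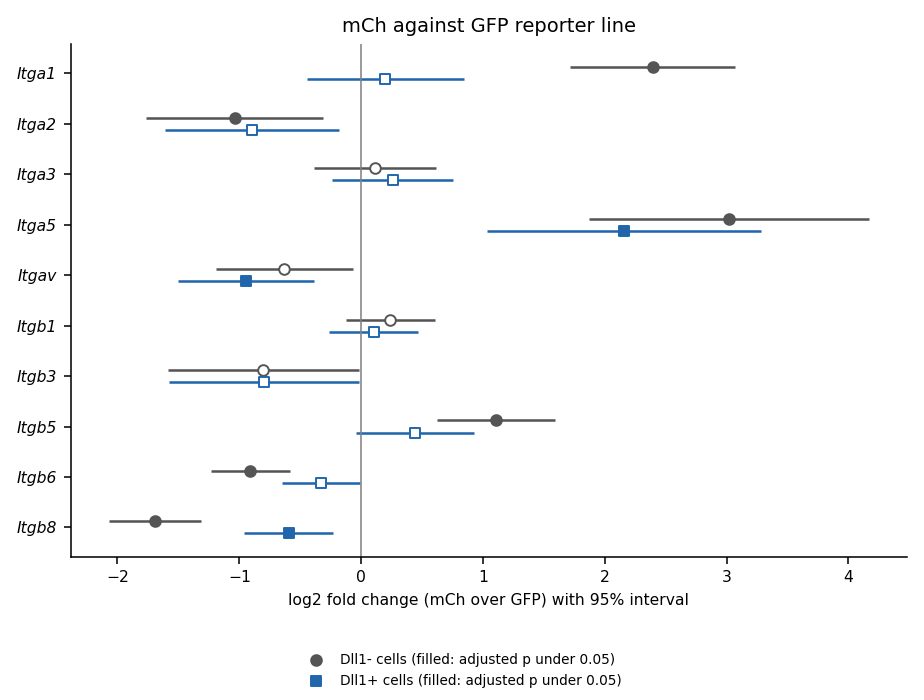
Log2 fold change of each integrin transcript in mCh against GFP mice (horizontal axis, positive values higher in mCh mice), in Dll1- and in Dll1+ cells, with 95% intervals and filled symbols for an adjusted p under 0.05. Itga5 was higher in mCh mice in both fractions and Itgb8 lower in both, whereas Itga1 was called in Dll1- cells alone.

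Per length of exon, the transcripts spanned a wide range of levels. The mean over the 8 libraries was highest for Itgb1, at 114 ± 12.9 CPM per kb (SD), followed by Itgb5 at 44.2 ± 16.6, Itga3 at 18.2 ± 4.27, Itgb3 at 16.9 ± 7.14, Itgav at 8.57 ± 3.78, Itga5 at 6.04 ± 7.11, Itgb8 at 3.31 ± 1.45, Itga2 at 1.74 ± 0.735, Itgb6 at 1.54 ± 0.377 and Itga1 at 0.827 ± 0.706. In each of the 4 groups Itgb1 and then Itgb5 stood first. Itgb1 did not overlap the next transcript in any group, while Itgb5 and Itgb3 overlapped in Dll1+ cells of GFP mice. In the Dll1- cells of mCh mice Itga3, Itga5 and Itgb3 overlapped in turn, and Itga5, at rank 9 of 10 in both fractions of GFP mice, was at rank 4. Neighbours in the order with overlapping libraries were also Itga2, Itgb6 and Itga5 in Dll1- cells of GFP mice Itgb6 and Itga2 in both fractions of mCh mice, and Itgav and Itga5 in Dll1+ cells of mCh mice.

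The β transcripts that can pair with αv, other than Itgb1, differed in their shares between the libraries. Of the summed level per kb of Itgb3, Itgb5, Itgb6 and Itgb8, Itgb5 held 54.8% and 59.8% in Dll1- and 44.6% and 57.5% in Dll1+ cells of mice 1 and 2. In mice 3 and 4 it held 86.1% and 83.8% in Dll1- and 70.1% and 70.0% in Dll1+ cells. Itgb3 held 32.8% and 30.3% against 45.5% and 32.6% in mice 1 and 2, and 10.4% and 13.7% against 22.9% and 23.0% in mice 3 and 4. Itgb8 held 6.46% to 8.46% in the libraries of GFP mice, 1.77% and 1.44% in Dll1- and 4.86% and 4.90% in Dll1+ cells of mice 3 and 4, and Itgb6 at most 3.92% in any library. In every mouse the share of Itgb5 was lower and that of Itgb3 higher in Dll1+ than in Dll1- cells. The level of Itgb5 itself was higher in Dll1+ cells of mice 1 and 2 and lower in those of mice 3 and 4. The shares were not tested. They are shares of transcripts and do not measure receptors on the cell surface.

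**Figure D5:**
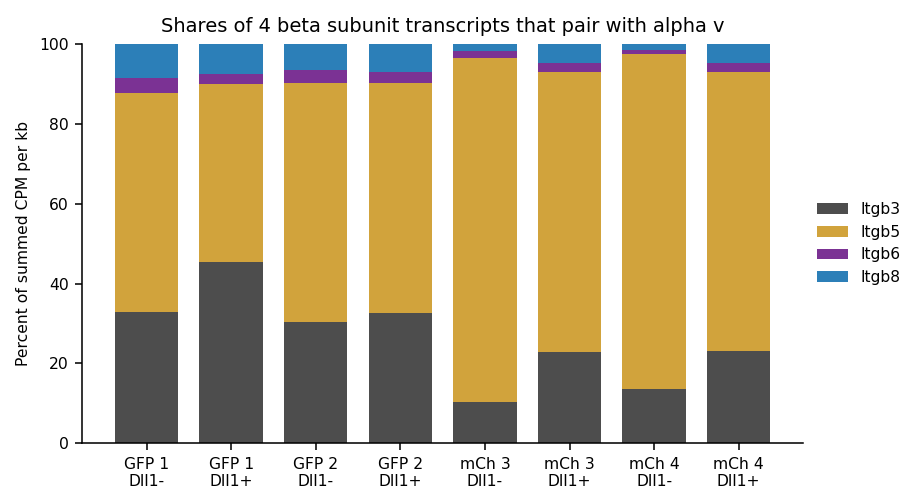
Shares of Itgb3, Itgb5, Itgb6 and Itgb8 in their summed CPM per kb of exon (vertical axis, percent from 0 to 100) in each of the 8 libraries. Itgb5 takes 44.6% to 59.8% in libraries of GFP mice and 70.0% to 86.1% in those of mCh mice.

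The remaining integrin genes gave few calls over the 4 mice. Of 16 other subunits 15 were tested, 1 was called higher and 0 lower at an adjusted p under 0.05 with edgeR (DESeq2 called 2 lower), with a median log2 fold change of -0.39. The 1 was Itga8, whose product pairs with β1 and binds nephronectin and other RGD ligands (0.70, SE 0.10, adjusted p 0.0114). The call was lost without mouse 1 (adjusted p 0.0583). It was higher in 4 of 4 mice, at 46.3 and 44.2 CPM in Dll1- and 83.5 and 84.9 CPM in Dll1+ cells of mice 1 and 2, and at 29.3 and 33.8 against 39.9 and 50.6 CPM in mice 3 and 4. The subunits of the laminin receptor of hemidesmosomes, Itga6 (0.13, adjusted p 0.387) and Itgb4 (0.12, adjusted p 0.415), did not pass. In mCh mice 5 of the 15 were called lower, beside 6.25% of all genes, Itga4, Itgal, Itgam, Itgax and Itgb2, all of them subunits known from leukocytes. The 12 immune markers, which include Itgam, summed 2.08- and 2.28-fold lower in Dll1+ cells of these mice, and their part in the result was not tested.

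Among 35 tested ligands, 3 were called higher and 1 lower over the 4 mice, with a median of -0.17. Spp1, which encodes osteopontin, an RGD ligand of αvβ3, was at 2360 and 1559 CPM in Dll1- and 6013 and 3540 CPM in Dll1+ cells of mice 1 and 2, and at 1001 and 1998 against 3208 and 4641 CPM in mice 3 and 4, and was 2.56-fold higher over the 4 mice (1.36, SE 0.11, adjusted p 0.00534). Edil3, an RGD ligand of αvβ3 and αvβ5, was 2.07-fold higher (1.05, SE 0.14, adjusted p 0.0113) at 1.84 to 13.2 CPM. Lamb3, a chain of the laminin that α3β1 and α6β4 bind, was 1.71-fold higher (0.78, SE 0.15, adjusted p 0.0310). Spp1 kept its call whichever mouse was left out, whereas Edil3 lost it without mouse 1 or mouse 3 and Lamb3 without mouse 1, 3 or 4. Lama4, another laminin chain, was the 1 called lower. Fn1, which encodes fibronectin, did not pass (-1.01, SE 0.33, adjusted p 0.110). It was at 126 and 146 CPM in Dll1- and 105 and 107 CPM in Dll1+ cells of mice 1 and 2, and at 608 and 1823 against 242 and 453 CPM in mice 3 and 4, and DESeq2 gave it an adjusted p of 0.0469. Tgfb1 did not pass either (0.27, adjusted p 0.255). In mCh mice 6 of the 35 ligands were called higher and 8 lower, where 5.51% of all genes were called higher and 6.25% lower, the 8 including Fn1 and the fibroblast markers Col1a1, Col1a2 and Col3a1.

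Of the 34 talin, kindlin and adaptor genes, which link integrins to actin and to signaling, 2 were called higher and 1 lower over the 4 mice, with a median of -0.034. Nedd9, a docking protein of focal adhesions, was 1.68-fold higher (0.75, SE 0.09, adjusted p 0.00798), and Parva, which encodes α-parvin, 1.37-fold higher (0.46, SE 0.09, adjusted p 0.0322). Tns3, which encodes tensin-3, was 1.23-fold lower (-0.30, SE 0.06, adjusted p 0.0342). The activators Tln1 (talin-1), Fermt1 and Fermt2 (kindlin-1 and kindlin-2) and the focal adhesion kinase gene Ptk2 did not pass over the 4 mice, at -0.10, -0.46, -0.15 and -0.09 (adjusted p 0.303, 0.169, 0.107 and 0.287). In GFP mice 2 of the 34 were called higher and 3 lower, where 4.29% of all genes were called higher and 4.84% lower. The 3 were Tln2, Tns3 and Fermt1 (-0.88, adjusted p 0.0152), with Fermt1 at -0.07 in mCh mice (adjusted p 0.767). In mCh mice 2 were called higher and 5 lower, where 5.51% and 6.25% of all genes were. The 5 were Fermt3, Parvb, Lims2, Arhgef7 and Apbb1ip. The immune, fibroblast, pericyte and endothelial markers were also lower in Dll1+ cells of these mice, and their part in the result was not tested. Of 19 tested genes of integrin inhibition and trafficking, 3 were called higher and 0 lower over the 4 mice with edgeR (DESeq2 called 1 lower), with a median of 0.048. These were Cd81, a tetraspanin (0.55, SE 0.07, adjusted p 0.0109), Slc3a2, whose product binds β1 and β3 tails (0.41, SE 0.06, adjusted p 0.0148), and Rab11a, a GTPase of recycling endosomes (0.29, SE 0.06, adjusted p 0.0255). Of the genes called over the 4 mice in the last 2 lists, Nedd9 alone kept its call whichever mouse was left out. The share of genes called over the 4 mice in each of the 4 lists, at most 15.8%, stood beside 14.0% of all genes.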

How the data were processed

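RNA-seq was read from 8 libraries of sorted tumor cells of 4 mice. The authors quantified reads with salmon against GENCODE M20 mouse transcripts (GRCm38.p6, per the processing notes; the salmon version is not given in the sources used here), collapsed transcripts to genes with tximport, and deposited whole-number estimated counts that were not normalized, so that length or GC effects on single genes were not corrected. Of 53697 genes, 53668 had a symbol and position in the GENCODE annotation of GRCm38 used here, and 0 columns were left unmapped.

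Tests used edgeR 4.0.16 under R 4.3.3 (TMM, filterByExpr on Dll1 status, robust quasi-likelihood F test), with p values adjusted by the Benjamini-Hochberg method over 18322 genes and a threshold of 0.05. The model held Dll1 status and the mouse, a second one a Dll1+ effect for each reporter and the mouse, and another a mean for each of the 4 groups. SE was the absolute log2 fold change over the square root of F, and 95% intervals used the t distribution of the moderated degrees of freedom. Levels per length are CPM per kb of the union of exons. Total counts of 27301396 to 123907626 per library set 3 counts at 0.0240 to 0.105 CPM, which covers counting error only. On simulated counts with 200 changed genes, the fit over 4 mice recovered 141 among 18063 genes, with 3.42% of its calls false. With the changes simulated in Dll1+ cells of PyMT-Dll1-GFP mice only, the test in those mice, fitted on all 8 libraries, recovered 99 among 18050 genes (2.94% false). With changes simulated in Dll1- cells of PyMT-Dll1-mCh mice only, the test between the lines in Dll1- cells recovered 107 (7.76% false). These rates describe the simulated counts only. Whether they carry over to the measured libraries, which are paired by mouse and differ between the lines, was not tested.

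Libraries were paired by the mouse identifier in the labels, since both came from the same animal. Deviations of paired libraries from their group means correlated at 0.554 in PyMT-Dll1-mCh and -0.0472 in PyMT-Dll1-GFP mice. In the tests of Dll1+ against Dll1- cells, p values measure the spread of the within-mouse differences. There were 2 mice per reporter, and the tests in each line used a spread shared by both lines and moderated across genes. The p value of a line thus does not measure the spread of its own mice alone. The tests between the lines had no mouse term. Their estimate of the spread thus treated the paired libraries of a mouse as independent.

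The members and lists were chosen with earlier results of these data known. Named were all members, Itga6 and Itgb4, up to 3 called genes with the lowest p of each of 4 pathway lists, and Spp1, Fn1, Tgfb1, Tln1, Fermt1, Fermt2 and Ptk2. Dll1, Lama4, the further called genes of single lines, and the markers of the sort and of other cell types are named outside this rule, after their values were seen. Alternatives were RLE size factors, total counts alone, DESeq2 1.42.0 (Wald test), no filter, 10 or more counts in each library, no mouse block, 1 reporter or 1 Dll1 status fitted alone, the longest transcript as length, and each mouse left out. A fit with the reporter in place of the mouse, and the alternatives for the pathway lists, were added after seeing the data. Promoter windows are those of RefSeq (GRCm38.p6).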

Additional observations from a re-analysis of the deposited data

Results flagged for a closer look

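In 3 of the 10 members, the difference between Dll1+ and Dll1- cells had opposite signs in the reporter lines, in all mice of each line. The share of all tested genes with this pattern was not counted, so the 3 cannot be set against it. For Itga1 the effect in PyMT-Dll1-mCh minus that in PyMT-Dll1-GFP mice was -2.13 on the log2 scale (95% interval -2.86 to -1.40), with folds of Dll1+ over Dll1- cells of 1.12 and 1.54 in mice 1 and 2 and 0.381 and 0.237 in mice 3 and 4. For Itgb5 it was -0.64 (-1.02 to -0.25), with folds of 1.09 and 1.11 against 0.819 and 0.611. For Itgb6 it was 0.58 (0.13 to 1.03), with folds of 0.845 and 0.953 against 1.29 and 1.40. In edgeR's test of the difference, none of the 3 passed over all genes (adjusted p 0.0841, 0.191 and 0.278). DESeq2 gave an adjusted p of 1.25e-06 for Itga1 and 0.0336 for Itgb5. The lowest and highest of the 4 within-mouse log2 differences were tested for standing far from the other 3, and 0 of the 20 tests over the 10 members found one. These tests pool both lines, whose differing effects widen the range, and the 2 libraries of a group are too few for such a test.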

How the results depend on the processing

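Among the members, 3 were called over the 4 mice, 2 in PyMT-Dll1-GFP mice, 6 in PyMT-Dll1-mCh mice, 0 for the difference between the lines, and 6 and 3 between the lines in Dll1- and Dll1+ cells. In that order, RLE size factors left each count as it was, total counts alone gave 3, 2, 6, 0, 7 and 4, DESeq2 5, 3, 7, 3, 8 and 5, no filter 2, 3, 7, 4, 7 and 4, and at least 10 counts in every library 4, 2, 6, 1, 6 and 3. The PyMT-Dll1-GFP and PyMT-Dll1-mCh libraries alone gave 2 and 0, and the Dll1- and Dll1+ libraries alone 5 and 5 between the lines. Leaving out 1 mouse gave 1 to 3 members over the 4 mice, 0 to 3 in PyMT-Dll1-GFP mice, 4 to 5 in PyMT-Dll1-mCh mice, 0 to 4 for the difference, 0 to 8 between the lines in Dll1- and 0 to 5 in Dll1+ cells, with the lone mouse of a line assumed to vary like the others. The lowest count over 4 mice, 1, was without mouse 3. The longest transcript as length put Itgav at 13.1 and Itgb6 at 2.27 CPM per kb. Itgb6 then stood above Itga2 (1.74), the reverse of their order per kb of the union of exons. The shares of the β transcripts were not computed with this length.

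Without the replicate block, which pairs the libraries of 1 mouse, 0 members passed over the 4 mice and 0 in PyMT-Dll1-GFP mice, 2 in PyMT-Dll1-mCh mice and 0 for the difference. With the reporter kept as a term in its place, 1 member passed over the 4 mice.

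Counts over all genes were 2568 over the 4 mice (4362 with DESeq2, 0 without the block, 1352 with the reporter term, and 433, 779, 405 and 2400 without mice 1 to 4). They were 1673 in PyMT-Dll1-GFP mice (3001 without a filter, 274 without the block, 20 and 2 without mice 1 and 2). In PyMT-Dll1-mCh mice they were 2154 (3637 without a filter, 212 without the block, 0 alone, and 1069, 905, 1315 and 906 without mice 1 to 4). For the difference they were 13 (540 with DESeq2, 1143 without a filter, 44 with at least 10 counts, 0 without the block, mouse 1 or mouse 2, and 717 and 57 without mice 3 and 4). Total counts alone lowered the share of higher calls over the 4 mice from 49.8% to 35.6% (974 higher, 1765 lower) and in PyMT-Dll1-GFP mice from 47.0% to 33.8% (695 higher, 1360 lower), with the counts of members in these 2 comparisons unchanged.

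Signs turned in uncalled members alone. Itgb1 in PyMT-Dll1-mCh mice went from 0.0073 to -0.0074 with RLE, -0.038 with total counts, -0.0074 with DESeq2, -0.013 without a filter, -0.0019 without the block, -0.011 alone and negative without mouse 3. Leaving out 1 mouse gave Itgb1 -0.12 to 0.082 there and Itga2 -0.012 to 0.67 in PyMT-Dll1-GFP mice. The differences between the lines ran from -0.18 to 0.57 for Itga2 and from -0.34 to 0.50 for Itgb3, negative without mouse 2 (-0.12 and -0.17) or mouse 3. Levels between the lines ran from -0.17 to 0.38 for Itga3 in Dll1- cells, and from -0.097 to 0.54 for Itga1 and -0.025 to 0.21 for Itgb1 in Dll1+ cells. The cause of these changes was not tested.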
